A study of Mus musculus with 4 samples.

Results

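The DNA methylation and demethylation enzymes described here are 9 mouse genes chosen by name. They are the maintenance pair Dnmt1 and Uhrf1, the de novo methyltransferases Dnmt3a and Dnmt3b with their cofactor Dnmt3l, the oxidases Tet1, Tet2 and Tet3, and the glycosylase Tdg. They make up 9 of the 24347 gene entries that each sample holds, and all 9 passed the filter on low values, so all 9 were tested. The RNA came from embryoid bodies (EBs) harvested at day 3, which are clumps of differentiating mouse embryonic stem cells (mESCs). EBs of the genotype WT were compared with EBs of the genotype NEMEP promoter-KO, in which CRISPR/Cas9 had removed the promoter of Gm11549, the gene of the micropeptide NEMEP. Each genotype has 2 samples, named here WT 1, WT 2, promoter KO 1 and promoter KO 2. Both genotypes are of strain 129/Ola, were grown in serum medium without LIF on uncoated bacterial plates, and had no other treatment. The study's methods say that the deletion used a pair of guide RNAs and that lines were grown from single sorted cells. The study describes the samples of a genotype as biologically independent, and the labels leave unstated whether promoter KO 1 and promoter KO 2 are separate lines. The tests measure only the spread between these samples. The series asks what this micropeptide does when mESCs turn into mesendoderm, the common precursor of mesoderm and endoderm.

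In mammals DNA methylation sits mostly on cytosines that are followed by guanine (CG sites). DNMT3A and DNMT3B place new methyl groups, DNMT3L has no catalytic activity of its own and stimulates both, and DNMT1 copies the pattern onto the new strand after replication, guided by UHRF1, which binds hemimethylated sites. TET enzymes oxidise methylated cytosine, TDG cuts out the oxidised bases, and base excision repair restores an unmodified cytosine. In mouse pluripotent cells methylation is low in the naive state and increases on the way to the epiblast state, in which Dnmt3a and Dnmt3b are strongly expressed.

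The promoters of the 3 members with the largest differences are shown first, because they differ in their content of CG sites, where DNA methylation sits. RefSeq (GRCm38.p6) gave 16 start windows for the members, with all 9 matched, each of 300 bases from 250 before to 50 after a transcript start. In these sequences, written 5′ to 3′ on the strand of the gene, CG sites are in capitals. The windows are chr10:78042037-78042336 (plus strand) for Dnmt3l, chr12:3806730-3807029 and chr12:3891494-3891793 (both plus strand) for an upstream and an internal start of Dnmt3a, and chr10:62887275-62887574 (minus strand) for Tet1. The Tet1 window is the only RefSeq start given for that gene and lies inside the longer span annotated for it below, so it is an internal start too.
Dnmt3l: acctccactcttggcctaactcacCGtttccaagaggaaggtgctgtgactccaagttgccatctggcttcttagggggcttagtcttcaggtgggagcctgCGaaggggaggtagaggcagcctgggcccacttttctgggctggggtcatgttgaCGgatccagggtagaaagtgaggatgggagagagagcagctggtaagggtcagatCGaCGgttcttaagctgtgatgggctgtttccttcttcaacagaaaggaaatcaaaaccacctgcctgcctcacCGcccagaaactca
Dnmt3a upstream start: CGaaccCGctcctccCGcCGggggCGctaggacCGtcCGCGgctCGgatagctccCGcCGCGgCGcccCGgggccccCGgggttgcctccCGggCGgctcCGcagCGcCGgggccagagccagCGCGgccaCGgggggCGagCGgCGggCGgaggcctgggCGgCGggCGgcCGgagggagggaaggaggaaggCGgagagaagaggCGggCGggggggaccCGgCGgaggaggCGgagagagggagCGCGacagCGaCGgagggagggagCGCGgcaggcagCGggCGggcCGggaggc
Dnmt3a internal start: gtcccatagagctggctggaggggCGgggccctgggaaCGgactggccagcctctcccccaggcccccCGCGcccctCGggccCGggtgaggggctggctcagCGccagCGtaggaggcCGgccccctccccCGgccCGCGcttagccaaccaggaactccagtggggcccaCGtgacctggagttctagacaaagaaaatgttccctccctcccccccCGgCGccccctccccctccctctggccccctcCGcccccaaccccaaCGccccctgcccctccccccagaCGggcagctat
Tet1: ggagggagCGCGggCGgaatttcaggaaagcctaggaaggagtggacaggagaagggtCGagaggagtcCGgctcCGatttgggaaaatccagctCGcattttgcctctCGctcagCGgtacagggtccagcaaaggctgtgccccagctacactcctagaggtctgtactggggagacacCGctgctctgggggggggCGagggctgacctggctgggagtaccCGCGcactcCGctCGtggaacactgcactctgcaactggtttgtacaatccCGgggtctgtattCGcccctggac

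The Dnmt3l window holds 6 CG sites at 54.7% G and C, close to the median of 7 over the 32851 windows of 27025 genes, and the other windows of Dnmt3l hold 4 and 3. The upstream Dnmt3a window holds 46 CG sites at 82.3% G and C, a number that 1.65% of all windows reach, and the internal one holds 18 (29.7% of windows reach it). The Tet1 window holds 17, which 31.4% of windows reach. Of the other members, Tet2 has the window richest in CG sites, with 57 (0.152% of windows reach this). Dnmt1 and Uhrf1 each have a window with 33 (8.56%) beside poorer ones, and Dnmt3b has 30 (11.7%). The motif GGGCGG, searched on both strands, has 6 matches in the upstream Dnmt3a window, 2 in the internal one, and 1 each in the Dnmt3l and Tet1 windows printed, and 35.7% of all windows hold it. It contains a CG site, so the counts of both overlap. The motif CCAAT, also searched on both strands, is in none of the 4 windows printed, and 37.4% of all windows hold it. Such matches describe letters and say nothing of binding, and methylation itself was not measured in these samples.

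Gm11549, the targeted gene, was listed at 0.750 FPKM in WT 1 and 0.522 in WT 2, against 0 in promoter KO 1 and 0.0659 in promoter KO 2. FPKM counts sequenced fragments relative to transcript length and to all mapped fragments of the sample, so levels can be compared between genes. Both promoter KO samples were below both WT samples, and the gene is under the filter and has no test.

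The depth, estimated from the values that single fragments give, came to about 24600000 (WT 1), 21900000 (WT 2), 21400000 (promoter KO 1) and 20000000 (promoter KO 2) fragments. All members other than Tet2 were estimated to rest on at least 573 fragments in every sample, if all fragments came from the longest annotated transcript. Tet2 rests on 131 to 231. Such counting error covers only part of the error between samples. The values are per gene and do not separate isoforms, such as the long and short forms of DNMT3A.

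Among the 9 enzymes, Dnmt3l and Dnmt3a rose in promoter KO EBs and none fell. Called means an adjusted p under 0.05 (limma on log2(FPKM + 1), Benjamini-Hochberg over the 11941 genes that 2 or more samples list at 1 FPKM or above). By that rule 2 of 9 members were higher and 0 were lower, against 1.68% (201 genes) and 1.89% (226 genes) of all tested genes. At an unadjusted p under 0.05 in limma, 4 members were higher (Dnmt3a, Dnmt3l, Tet1 and Uhrf1) and 0 were lower, against 15.0% and 15.6% of all tested genes. Both promoter KO samples were above both WT samples in 6 members and below them in 0, against 32.9% and 32.4% of all tested genes. The median log2 fold change (promoter KO minus WT) of the members was 0.28, and that of all tested genes was 0.0042. Members that also differed more than 2-fold at an unadjusted p under 0.05 were Dnmt3l alone, among 1.40% of tested genes higher and 1.63% lower by that rule. Over the whole table, without WT 2 limma called 0 genes, with 1875 at an unadjusted p under 0.05, and without promoter KO 1 it called 0, with 2009 at an unadjusted p under 0.05. Calls of single genes given here therefore end when either sample is left out. With no filter on low values limma also called 0 genes, with 4059 at an unadjusted p under 0.05.

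**Figure D1:**
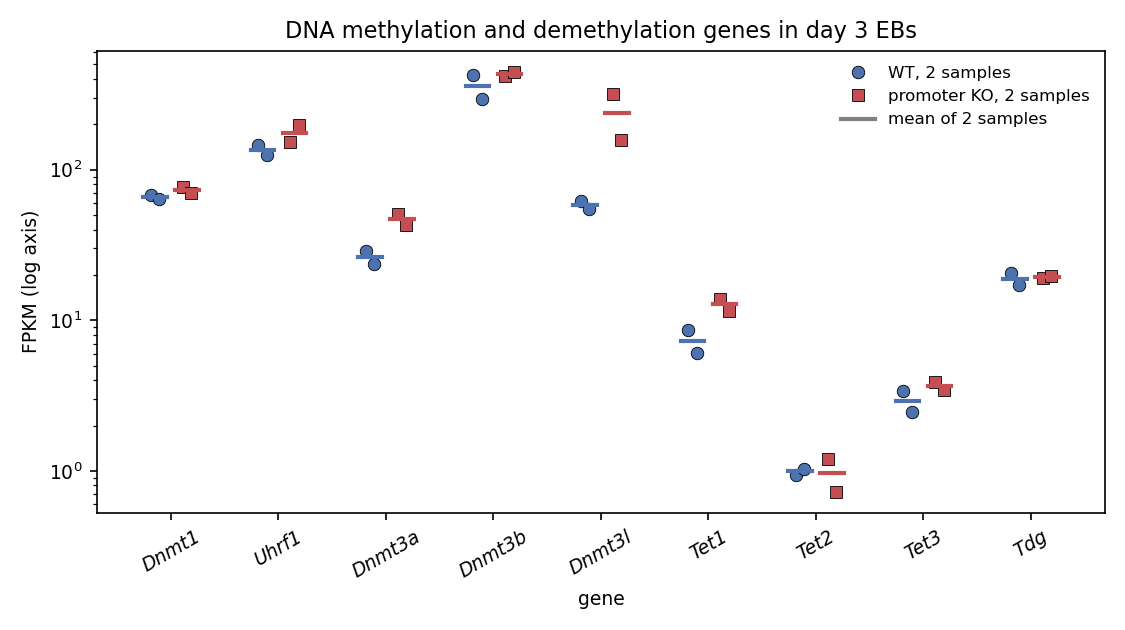
FPKM (log axis) of the 9 enzymes in each sample of day 3 EBs, with WT and promoter KO as separate colours and the genotype mean as a bar. Dnmt3l is at 62.0 and 54.8 in WT and at 319 and 157 in promoter KO, and Dnmt3b is the most abundant member in all 4 samples.

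Dnmt3l showed the largest difference of the family. This gene (chr10:78041947-78063622, plus strand, longest transcript 1822 bases in 14 exons) encodes the inactive partner of DNMT3A and DNMT3B, and it was listed at 62.0 FPKM in WT 1 and 54.8 in WT 2, against 319 in promoter KO 1 and 157 in promoter KO 2. Both promoter KO samples lay far above both WT samples, with promoter KO 1 the higher of the pair. The means were 58.4 ± 5.09 FPKM for WT against 238 ± 114.5 for promoter KO (SD, n = 2), a 4.08-fold difference. The log2 fold change was 1.92 (95% confidence interval 1.17 to 2.68, standard error 0.307, limma adjusted p = 0.0422). Dnmt3l was 14th of the 201 genes called higher, ranked by log2 fold change. Among all 24347 gene entries its level ranked 1572 in WT 1 and 1821 in WT 2, and 289 and 599 in the promoter KO samples. The study itself names Dnmt3l from these samples, so its direction is not independent evidence. Over all alternatives its adjusted p ran from 0.0101 to 0.214 and the log2 fold change from 1.42 to 2.43. The call ended without WT 1 (adjusted p = 0.0878), without WT 2 (0.214), without promoter KO 1 (0.0676), with no filter (0.146) and with no intensity trend (0.0647), and it held without promoter KO 2 (0.0131).

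Dnmt3a also rose, by less. Dnmt3a (chr12:3806007-3914443, plus strand, longest transcript 9685 bases in 23 exons) encodes a de novo methyltransferase, and its level was 28.8 FPKM in WT 1 and 23.6 in WT 2, against 50.6 in promoter KO 1 and 42.9 in promoter KO 2. WT and promoter KO values did not overlap. The means were 26.2 ± 3.70 FPKM for WT against 46.7 ± 5.48 for promoter KO (SD, n = 2), a 1.78-fold difference that is larger than the spread within either genotype. The log2 fold change was 0.81 (95% confidence interval 0.48 to 1.14, standard error 0.135, limma adjusted p = 0.0442), which ranked 140th of the 201 genes called higher. This call lies close to the threshold. Leaving out any 1 sample ended it, with an adjusted p of 0.0626 without WT 1, 0.214 without WT 2, 0.179 without promoter KO 1 and 0.0503 without promoter KO 2. It also ended with no filter (0.144) and with no intensity trend (0.0677), and over all alternatives the adjusted p ran from 0.0137 to 0.214.

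Dnmt3b, the other de novo enzyme, was the most abundant member in every sample and did not pass the test. The gene (chr2:153649450-153687730, plus strand) was at 427 FPKM in WT 1 and 296 in WT 2, against 417 in promoter KO 1 and 447 in promoter KO 2. WT 2 was the low sample, and WT 1 lay between the promoter KO samples, so the genotypes overlapped. The means were 361 ± 92.1 FPKM for WT against 432 ± 21.1 for promoter KO (SD, n = 2). Its log2 fold change of 0.28 has a 95% confidence interval of −0.13 to 0.69 (limma adjusted p = 0.305), which holds 0. The value depends on which WT sample is used, with 0.54 without WT 1 (adjusted p = 0.0853) and 0.02 without WT 2 (0.950), and Dnmt3b was called under none of its 11 alternatives (adjusted p from 0.0853 to 0.950).

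Within the de novo group Dnmt3l made up a larger part of the transcripts in promoter KO EBs. Dnmt3l FPKM divided by the summed FPKM of Dnmt3a and Dnmt3b was 0.136 in WT 1 and 0.171 in WT 2, against 0.683 in promoter KO 1 and 0.321 in promoter KO 2. On the log2 scale the mean ratio was −2.71 ± 0.234 in WT and −1.09 ± 0.770 in promoter KO (SD, n = 2), a difference of 1.62. That difference was 1.07 without promoter KO 1 and 2.16 without promoter KO 2. As shares of the summed FPKM of all 3 genes, Dnmt3l made up 12% and 14.6% in WT and 40.6% and 24.3% in promoter KO. Dnmt3b made up 82.4% and 79.1% in WT and 53.0% and 69.1% in promoter KO, while Dnmt3a stayed between 5.57% and 6.63% in all 4 samples. The ratio of Dnmt3b to Dnmt3a was 14.8 in WT 1 and 12.5 in WT 2, against 8.23 in promoter KO 1 and 10.4 in promoter KO 2, with log2 means of 3.77 and 3.21. Samples of the genotypes did not overlap in either ratio, and any factor that scales a whole sample drops out of both. The exact permutation test (two-sided) gave p = 0.333 for each ratio, the smallest that 2 samples against 2 can give, so these differences cannot pass a threshold of 0.05. How much of this is fewer or more cells of a type and how much is RNA per cell cannot be told apart in bulk samples.

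**Figure D2:**
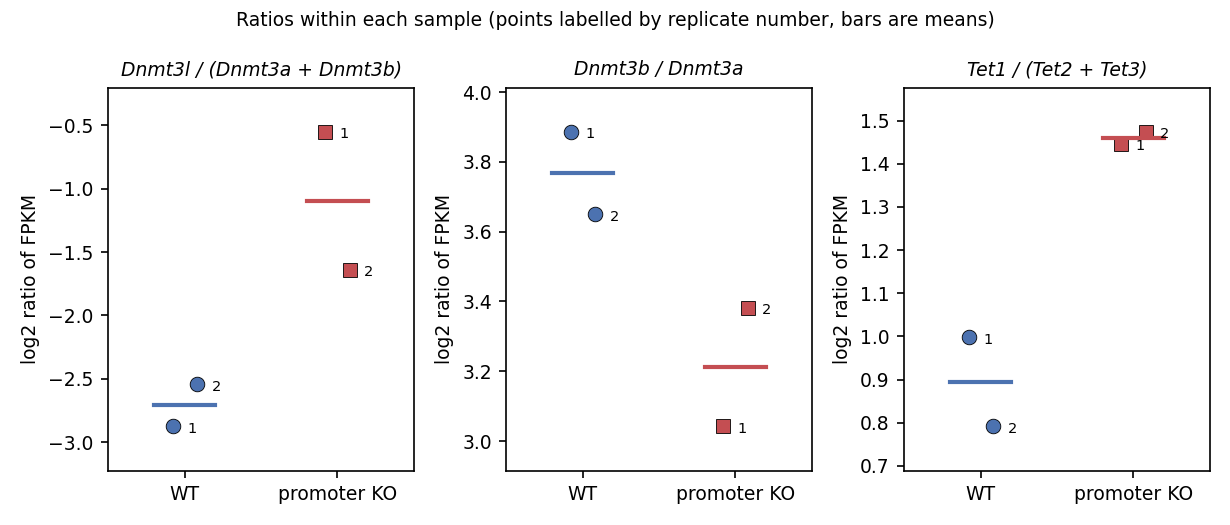
Log2 ratios of FPKM within each sample for Dnmt3l to Dnmt3a plus Dnmt3b, Dnmt3b to Dnmt3a, and Tet1 to Tet2 plus Tet3, with 1 point per sample and the genotype mean as a bar. The Dnmt3l ratio is −2.88 and −2.55 in WT and −0.55 and −1.64 in promoter KO, and WT and promoter KO samples do not overlap in any of the 3 ratios.

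The maintenance enzymes were abundant in both genotypes, and neither was called. Uhrf1 (chr17:56303321-56323486, plus strand), which brings DNMT1 to hemimethylated sites, was at 145 FPKM in WT 1 and 126 in WT 2, against 153 in promoter KO 1 and 196 in promoter KO 2. Each promoter KO sample exceeded each WT sample, with promoter KO 1 close to WT 1. All 9 tested genes within 200 kb of Uhrf1 were likewise higher in promoter KO 2 than in promoter KO 1, such as Plin3 (96.3 against 61.2 FPKM, named after its values were seen). Of these 9, 0 were called, their median log2 fold change was 0.13, and the part of this shared order in the Uhrf1 value was not tested. The Uhrf1 log2 fold change was 0.36 (95% confidence interval 0.02 to 0.70, limma adjusted p = 0.145), with 0.54 without promoter KO 1 and 0.18 without promoter KO 2. Dnmt1 (chr9:20907209-20959888, minus strand), the maintenance methyltransferase, was at 68.0 FPKM in WT 1 and 63.9 in WT 2, against 77.2 in promoter KO 1 and 69.5 in promoter KO 2. Again both promoter KO values were above the WT samples, by a margin that is small against the spread within promoter KO. The log2 fold change was 0.15 (95% confidence interval −0.07 to 0.37, limma adjusted p = 0.309), an interval that leaves out a change of the size seen for Dnmt3a. Without promoter KO 1 it was 0.07 and without promoter KO 2 0.22. Uhrf1 has 1 annotated copy of high identity, Gm5648 (98.3% over 1590 bases), which is not among the genes listed and could share its reads.

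Of the TET oxidases, Tet1 was the most abundant and had the largest difference, without a call. Tet1 (chr10:62804570-62908996, minus strand, longest transcript 14369 bases in 13 exons) was at 8.64 FPKM in WT 1 and 6.03 in WT 2, against 13.9 in promoter KO 1 and 11.6 in promoter KO 2. Each promoter KO sample exceeded each WT sample. The means were 7.33 ± 1.85 FPKM for WT against 12.7 ± 1.59 for promoter KO (SD, n = 2), a ratio of 1.74, and the log2 fold change was 0.73 (95% confidence interval 0.28 to 1.19, standard error 0.186, limma adjusted p = 0.0727). Tet1 thus differed by nearly as much as Dnmt3a but fell short of the threshold, as it did with each sample left out in turn (adjusted p from 0.0781 to 0.301). Tet3 (chr6:83362373-83459084, minus strand) was at 3.38 FPKM in WT 1 and 2.45 in WT 2, against 3.88 in promoter KO 1 and 3.45 in promoter KO 2. Its log2 fold change was 0.26 (95% confidence interval −0.16 to 0.69, limma adjusted p = 0.339), although the promoter KO samples lay just above the WT samples. Without WT 1 it was 0.44 and without WT 2 0.09. Tet2 (chr3:133463679-133545139, minus strand) was near the filter, at 0.946, 1.04, 1.20 and 0.728 FPKM in the same order of samples. The genotypes overlapped, and the log2 fold change was −0.03 (95% confidence interval −0.47 to 0.41, limma adjusted p = 0.930). Its sign turns positive when each sample is centred on its median (0.0022), without WT 2 (0.0035) and without promoter KO 2 (0.15).

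Tet1 made up a larger share of TET transcripts in promoter KO EBs. Its share of the summed FPKM of the 3 TET genes was 66.6% in WT 1 and 63.4% in WT 2, against 73.2% in promoter KO 1 and 73.5% in promoter KO 2. Accordingly the ratio of Tet1 to Tet2 plus Tet3 was 2.00 and 1.73 in WT and 2.72 and 2.78 in promoter KO. The mean log2 ratio was 0.89 ± 0.146 in WT and 1.46 ± 0.02 in promoter KO (SD, n = 2), a difference of 0.57 with p = 0.333 in the exact permutation test (two-sided).

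Tdg, the glycosylase that removes oxidised methylcytosine, was even across the samples. The gene (chr10:82629828-82650799, plus strand) was at 20.7 FPKM in WT 1 and 17.1 in WT 2, against 19.06 in promoter KO 1 and 19.8 in promoter KO 2, so both promoter KO samples lay between the WT samples. The log2 fold change was 0.04 (95% confidence interval −0.26 to 0.34, limma adjusted p = 0.839), and without WT 2 it was −0.09. Tdg has annotated copies that could share its reads, among them Tdg-ps (98.7% over 2968 bases) and Gm9855 (99.2% over 1194 bases). Gm9855, named after its values were seen, was listed at 1.05 and 2.79 FPKM in WT against 0.0437 and 4.23e-07 in promoter KO (log2 fold change −1.45, limma adjusted p = 0.0560). This copy passed the filter only through WT. The 7 members other than Tdg and Uhrf1 have no annotated copy that shares 200 or more bases at 95% identity or above.

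**Figure D3:**
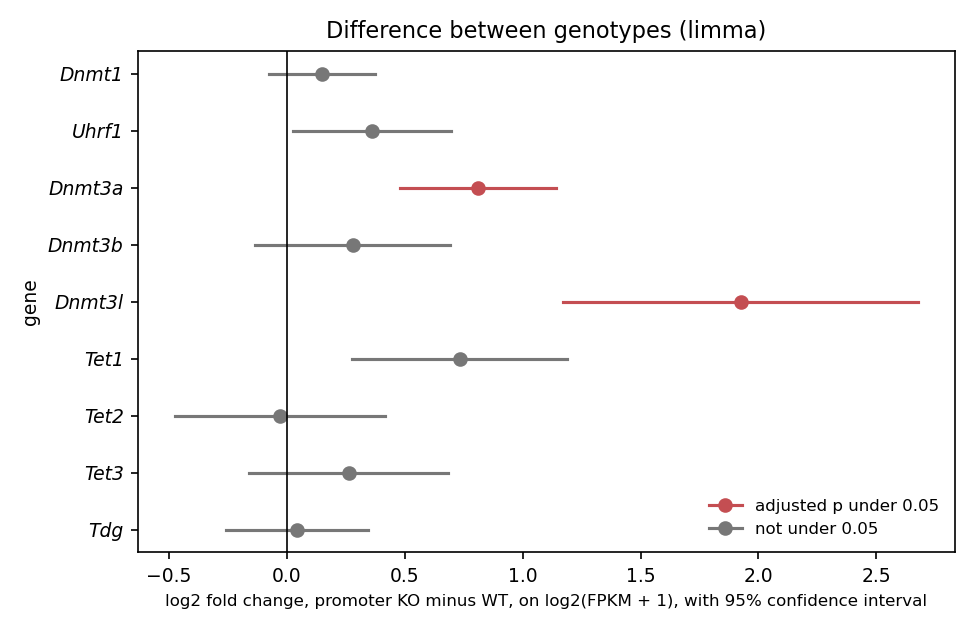
Log2 fold change (promoter KO minus WT, on log2(FPKM + 1)) of the 9 enzymes with 95% confidence intervals from limma, coloured by whether the adjusted p is under 0.05. Dnmt3l (1.92) and Dnmt3a (0.81) are called, the intervals of Tet1 (0.28 to 1.19) and Uhrf1 (0.02 to 0.70) also lie above 0, and the intervals of Tet2 and Tdg are centred near 0.

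Ordered by mean FPKM, the members in WT were Dnmt3b, Uhrf1, Dnmt1, Dnmt3l, Dnmt3a, Tdg, Tet1, Tet3 and Tet2. No neighbours in that order had overlapping ranges over the WT samples. The order in promoter KO differed by the move of 1 gene, because Dnmt3l stood above Uhrf1 and Dnmt1. There the ranges of Dnmt3l and Uhrf1 overlapped, since promoter KO 2 had more Uhrf1 (196 FPKM) than Dnmt3l (157 FPKM), and all other neighbours were apart.

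The members lie on 7 chromosomes, with Dnmt3l, Tet1 and Tdg all on chromosome 10. The 544 tested genes of chromosome 10 had a median log2 fold change of −0.0028, with 13 called higher and 14 lower. Within 200 kb of Dnmt3l 8 other genes were tested, with a median of 0.14. Of these 0 were called higher and 1 was called lower, Pfkl, a glycolytic enzyme (log2 fold change −0.71, limma adjusted p = 0.0391), named after its values were seen. Aire, which overlaps Dnmt3l on the opposite strand, was at 1.56 and 4.32 FPKM in WT against 3.83 and 2.35 in promoter KO, and these overlap. Of the 8, 3 had higher values in both promoter KO samples (Icosl, Pwp2 and Lrrc3, also named after their values were seen), a share near the 32.9% of all tested genes, and none of the 3 was called. Icosl was at 3.58 and 3.76 FPKM in WT against 7.68 and 4.57 in promoter KO (log2 fold change 0.58, limma adjusted p = 0.154). Pwp2 was at 30.1 and 28.7 FPKM in WT against 46.1 and 37.0 in promoter KO (0.48, limma adjusted p = 0.0748), and Lrrc3 at 3.94 and 3.54 against 4.39 and 4.25 (0.17, 0.432). Around Dnmt3a 4 genes were tested and 0 were called, with a median of −0.10. Dnmt3aos, annotated antisense within Dnmt3a, was listed at 0 in 3 samples and at 0.0792 FPKM in promoter KO 1. Around Tet1 6 genes were tested, and the 1 called was lower (Hnrnph3, log2 fold change −0.75, limma adjusted p = 0.0472, named after its values were seen). Tet3 lies on chromosome 6, whose 531 tested genes had a median of 0.13, beside the 0.26 of Tet3 itself.

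The genes whose values over the 4 samples are most like those of Dnmt3l, by the root-mean-square difference of log2 values centred on each gene's mean, are Capn3 (0.134), Enox1 (0.149), Gm5424 (0.164), Nphs1os (0.201) and Nefh (0.212). All 5 are highest in promoter KO 1 and next highest in promoter KO 2, an order that the choice by likeness to Dnmt3l largely fixes, so their calls are no separate evidence. Enox1 was at 1.16 and 1.29 FPKM in WT against 8.98 and 4.99 in promoter KO (log2 fold change 1.80, limma adjusted p = 0.0377). Gm5424, an annotated copy of Ass1 (99.5% over 1240 bases) whose values are uncertain for that reason, rose (2.09, adjusted p = 0.0412), as did Nefh, a neurofilament gene (1.58, 0.0393). Capn3, a calpain protease gene, and Nphs1os were not called (adjusted p = 0.0633 and 0.0509), although both were without promoter KO 2 (0.0312 and 0.0404). For Enox1, Gm5424 and Nefh the adjusted p without WT 2 was 0.189, 0.198 and 0.204, and without promoter KO 1 it was 0.127, 0.0898 and 0.133. Without WT 1 these calls ended too (0.0815, 0.0962 and 0.0801), as they did with no intensity trend (0.0600, 0.0642 and 0.0624). For Tet1 the most alike are Rbm38 (0.0217), Gm14325 (0.0222), Chd9 (0.0343), Sec24d (0.0361) and Zfp281 (0.0363), and 0 of these 5 were called by limma. Gm14325 belongs to a zinc finger family with annotated copies at 95% identity or above, so its values are uncertain. Rbm38, which encodes an RNA-binding protein, was at 66.5 and 49.8 FPKM in WT against 107 and 89.8 in promoter KO.

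Genes of proteins that direct or limit the action of these enzymes were mostly not called. Of 18 such genes 16 were tested, 1 was called higher and 0 lower, with 4 higher and 4 lower by unadjusted p (under 0.05) and a median log2 fold change of −0.01. Zfp57, a zinc finger protein that keeps methylation at imprinted genes, rose from 19.13 and 24.4 FPKM in WT to 43.1 and 35.5 in promoter KO (log2 fold change 0.83, limma adjusted p = 0.0493). Its call ended without WT 1 (0.111), WT 2 (0.162), promoter KO 1 (0.202) or promoter KO 2 (0.0552), and also under median centring (0.0556) and quantile normalization (0.0536). It ended as well with a pseudocount of 0.1 (0.0513), a mean of at least 5 FPKM (0.0557) and no intensity trend (0.0714). Over all alternatives its adjusted p ran from 0.0387 to 0.202. Uhrf2, the relative of Uhrf1, was at 35.4 and 41.7 FPKM in WT against 20.5 and 25.4 in promoter KO (log2 fold change −0.73, limma adjusted p = 0.0509), and was called lower without promoter KO 2 (0.0485). The most abundant gene, Trim28, was at 561, 539, 717 and 583 FPKM in the same order of samples, and Prdm14 and Cxxc4 were under the filter.

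The readers of methylated DNA showed no call. All 10 were tested, 0 were called in limma in either direction, and 0 passed an unadjusted p of 0.05, with a median log2 fold change of 0.04. Mbd2 (0.23, limma adjusted p = 0.260) and Zbtb33 (0.25, 0.338) had the smallest adjusted p of this list. The summed FPKM of the list, in which Mbd3 is the most abundant gene, was 258 in WT 1 and 271 in WT 2, against 294 in promoter KO 1 and 264 in promoter KO 2.

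Among the base excision and deamination genes, which act after TET and TDG or are linked to demethylation, 1 member of the Gadd45 family fell. Of the 14 genes tested, 0 were called higher and 1 lower by limma, with 3 and 3 at an unadjusted p under 0.05 and a median of −0.07. Gadd45b, a stress response gene, fell from 11.9 and 15.0 FPKM in WT to 4.02 and 6.61 in promoter KO (log2 fold change −1.22, limma adjusted p = 0.0493). Its relative Gadd45g was at 2.64 and 5.92 FPKM in WT against 20.7 and 12.3 in promoter KO (log2 fold change 1.76, adjusted p = 0.0546), and the difference between these genes was not tested. Gadd45a, named after its values were seen, was also higher in both promoter KO samples (23.9 and 28.2 FPKM in WT against 52.8 and 32.7 in promoter KO, 0.66, adjusted p = 0.119) and was not called. The Gadd45b call ended without WT 1 (0.0887), WT 2 (0.245) and promoter KO 1 (0.171), under median centring (0.0547) and under quantile normalization (0.0536). It also ended with a pseudocount of 0.1 (0.0519), a mean of at least 5 FPKM (0.0557) and no intensity trend (0.0677), with a range over all alternatives of 0.0142 to 0.245. Apobec1 was under the filter. Apex1 was the most abundant gene of this list.

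The methyl donor cycle, which makes S-adenosylmethionine for all methyltransferases, had 8 of 10 genes tested and 0 called by limma, with 2 higher and 1 lower by unadjusted p (under 0.05) and a median of 0.11. Mat2a, which encodes a catalytic subunit of methionine adenosyltransferase and is the most abundant of the list in promoter KO (in WT it is level with Ahcy), was at 124 and 105 FPKM in WT against 225 and 171 in promoter KO (log2 fold change 0.78, limma adjusted p = 0.0523), and was called higher without promoter KO 2 (0.0416). It has an annotated copy, Gm9523 (95.6% over 1164 bases). Ahcyl1 was at 43.1 and 44.1 FPKM in WT against 35.4 and 34.7 in promoter KO (−0.31, adjusted p = 0.0807). Mat1a and Bhmt were under the filter, with Bhmt at 0 in a sample.

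Of the germline genes that promoter methylation is known to silence, 1 rose in promoter KO EBs. Of 20 genes 13 were tested, 1 was called higher and 0 lower. By unadjusted p (under 0.05) in limma 8 were higher and 1 lower, against 15.0% and 15.6% of all tested genes. The median log2 fold change was 0.72, and each promoter KO sample exceeded each WT sample in 10 of 13, against 32.9% of all tested genes. These 10 include Dazl, Taf7l, Stk31 and Fkbp6, all but Dazl named after their values were seen. They were under 1 FPKM in both WT samples and passed the filter only through promoter KO. The filter thus fixed their direction. Also among the 10 are Mov10l1 (1.19 and 0.914 FPKM in WT) and Tdrd1 (0.974 and 1.25), named after their values were seen. Each reached 1 FPKM in a single WT sample and would not have passed without promoter KO. The counts and the median include all of these genes. Rhox5, an X-linked homeobox gene, rose from 18.7 and 18.8 FPKM in WT to 88.7 and 42.9 in promoter KO (log2 fold change 1.67, limma adjusted p = 0.0493). Like Dnmt3l, Rhox5 was higher in promoter KO 1 than in promoter KO 2. Without promoter KO 1 its adjusted p was 0.0851, without WT 1 0.113 and without WT 2 0.234, and the call also ended under median centring (0.0558) and quantile normalization (0.0536). With a pseudocount of 0.1 it was 0.0510, with a mean of at least 5 FPKM 0.0559 and with no intensity trend 0.0711. Over all alternatives it ran from 0.0131 to 0.234. Dazl, an RNA-binding protein of germ cells, was at 0.591 and 0.508 FPKM in WT against 2.43 and 1.45 in promoter KO (0.90, adjusted p = 0.0635). Sycp3, the most abundant gene of the list in WT (Rhox5 was in promoter KO), lay the other way, at 47.9 and 58.3 FPKM in WT against 44.2 and 38.9 in promoter KO (−0.34, adjusted p = 0.137). The summed FPKM of the list was 100.8 in WT 1 and 116 in WT 2, against 213 in promoter KO 1 and 133 in promoter KO 2. Rhox5 carries much of this, and without it the sum in promoter KO 2 lies between those of the WT samples. The 7 untested genes are Sycp1, Tex101, Slc25a31, Hormad1, Asz1, Brdt and Piwil2. Whether these genes and the enzymes are related was not tested.

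**Figure D4:**
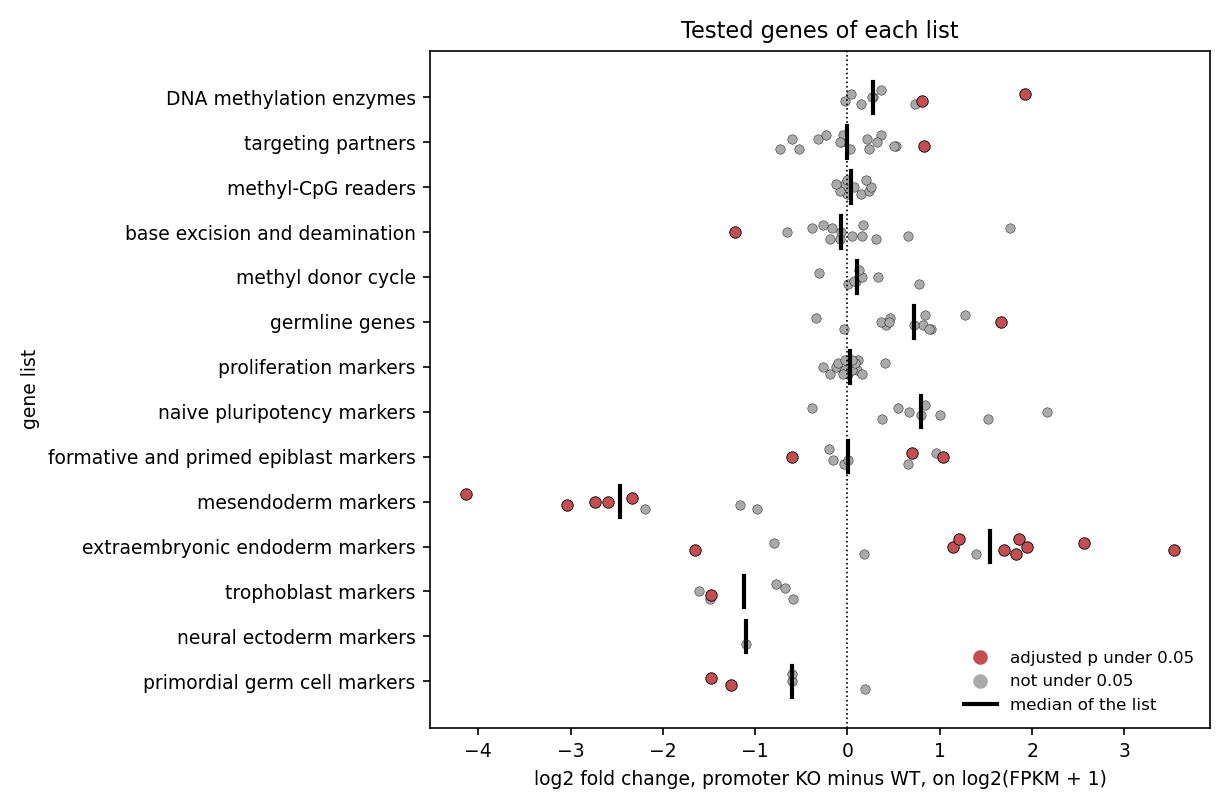
Log2 fold change (promoter KO minus WT) of each tested gene of each list, with 1 point per gene, the list median as a bar, and genes with a limma adjusted p under 0.05 marked. Medians run from −2.46 for mesendoderm markers to 1.54 for extraembryonic endoderm markers, and the median of the 9 enzymes is 0.28.

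Markers of cell state and cell type also differed between the genotypes, and their part in the results on the enzymes was not tested. The labelled cell type, ES-derived mesendoderm cells, was checked against 8 mesendoderm markers, whose summed FPKM was 777 in WT 1 and 1002 in WT 2, against 148 in promoter KO 1 and 314 in promoter KO 2. All 8 were expressed in WT, with T the most abundant, and the promoter KO EBs, which carry the same label, had lower values of all 8. In promoter KO 5 of the 8 fell (Mixl1, Gsc, Mesp1, Lhx1 and Evx1), 0 were called higher, all 8 had an unadjusted p under 0.05, and the median log2 fold change was −2.46. The study reports lower mesendoderm genes from these samples, so the list is not independent evidence. The sum was lowest in promoter KO 1, the sample with the most Dnmt3l. In limma without WT 2 the adjusted p of the 5 ran from 0.105 (Lhx1) to 0.220 (Evx1), and without promoter KO 1 from 0.0676 (Lhx1 and Mixl1) to 0.182 (Mesp1). Without WT 1 the calls of Mixl1 (0.0818), Gsc (0.0837) and Evx1 (0.0654) ended. Under median centring Mesp1 (0.0507) and Evx1 (0.0533) were no longer called, and under quantile normalization Evx1 (0.0511) was not. Both calls also ended with a pseudocount of 0.1 (0.0510 each) and with a mean of at least 5 FPKM (0.0525 and 0.0544). With no intensity trend Lhx1 (0.0358) kept its call, and Mixl1 (0.0639), Gsc (0.0624), Mesp1 (0.0677) and Evx1 (0.0678) did not. Over all alternatives the adjusted p ran from 0.00205 to 0.198 for Mesp1 and from 0.00500 to 0.220 for Evx1.

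Naive pluripotency markers, genes of the state that mESCs leave as they differentiate, had 9 of 10 genes tested and 0 called by limma, with 4 higher and 1 lower by unadjusted p (under 0.05) and a median of 0.80. Nr0b1 was at 2.09 and 3.67 FPKM in WT against 26.9 and 9.43 in promoter KO (log2 fold change 2.17, limma adjusted p = 0.0583), and Esrrb, which the study names from these samples, was not called either (log2 fold change 1.52, adjusted p = 0.0747). Without promoter KO 2 both were called higher, and with the replicate number as a block Nr0b1 was too (limma adjusted p = 0.0421). The absence of calls thus depends on that sample and on the model. Nanog, the most abundant of the list, lay the other way (−0.38, adjusted p = 0.0974), and Prdm14 was under the filter. The summed FPKM was 209 in WT 1 and 239 in WT 2, against 341 in promoter KO 1 and 238 in promoter KO 2. Nanog, at 140 and 113 FPKM in WT against 94.1 and 98.7 in promoter KO, carries much of this sum. With Nanog only promoter KO 1 stood above both WT samples, and without it both promoter KO samples do. Dnmt3l, Rhox5 and the sum of the germline list were also highest in promoter KO 1.

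Formative and primed epiblast markers, genes of the stage at which de novo methylation proceeds, were all 9 tested, with 2 called higher, 1 called lower and a median of 0.01. At an unadjusted p under 0.05 there were 4 higher and 1 lower. Pou3f1 rose from 44.6 and 40.2 FPKM in WT to 88.9 and 87.0 in promoter KO (log2 fold change 1.04, limma adjusted p = 0.0208), and Sox3 rose as well (0.70, 0.0493). Zic2, the most abundant of the list in WT but not in promoter KO, fell from 140 and 124 FPKM to 86.5 and 86.7 FPKM (−0.60, 0.0389). Pou3f1, Sox3 and Zic2 are also known from early neural cells. Their adjusted p without WT 2 was 0.112, 0.227 and 0.155, and without promoter KO 1 0.0951, 0.202 and 0.151. The Sox3 call also ended without WT 1 (0.0626), without promoter KO 2 (0.0626), under median centring (0.0547) and under quantile normalization (0.0552). It ended as well with a pseudocount of 0.1 (0.0512), a mean of at least 5 FPKM (0.0557) and no intensity trend (0.0730), with a range over all alternatives of 0.0185 to 0.227. The Zic2 call ended without WT 1 (0.0926), without promoter KO 2 (0.0558) and with no intensity trend (0.0677). The summed FPKM of this list was 588, 483, 564 and 585 in the order WT 1, WT 2, promoter KO 1 and promoter KO 2.

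Extraembryonic endoderm markers were the list with the most calls. All 12 were tested, 8 rose and 1 fell, with a median log2 fold change of 1.54, and at an unadjusted p under 0.05 there were 9 higher and 2 lower. Of those that rose, Sox7 and Cubn were under 1 FPKM in both WT samples and passed the filter only through promoter KO. The filter thus fixed the direction of Sox7 and Cubn. Among the WT samples Srgn (2.33 and 0.254 FPKM) and Ttr (2.18 and 0.996) reached 1 FPKM in WT 1 alone. So did Afp (1.25 and 0.0242), which was not called and is named after its values were seen. Srgn, Ttr and Afp too would not have passed without promoter KO. The counts and the median include all of these genes. Amn, which encodes the membrane partner of the receptor cubilin, rose from 2.33 and 1.14 FPKM in WT to 14.4 and 15.1 in promoter KO (log2 fold change 2.56, limma adjusted p = 0.0208). Sparc, a matrix protein gene and the most abundant of the list, rose from 46.0 and 59.3 to 110.9 and 134 FPKM (1.21, 0.0318). The others called higher were Srgn (3.54), Cubn (1.95), Dab2 (1.86), Col4a1 (1.83), Ttr (1.70) and Sox7 (1.14). Gata6 fell (−1.65, adjusted p = 0.0389), and Sox17, named after its values were seen, was not called (−0.79, adjusted p = 0.0779). The summed FPKM was 100.2 in WT 1 and 134 in WT 2, against 228 in promoter KO 1 and 284 in promoter KO 2, so here promoter KO 2 was the higher sample, unlike for Dnmt3l. Sparc, Col4a1 and Srgn are not particular to this cell type, and the list was drawn up with earlier results of these samples known. Without WT 2 the adjusted p of the 9 called genes ran from 0.0632 (Srgn) to 0.197 (Sox7), and without promoter KO 1 from 0.0676 (Col4a1) to 0.171 (Gata6 and Ttr). Leaving out WT 1 ended the calls of Sox7 (0.0725) and Sparc (0.0567). Leaving out promoter KO 2 ended those of Srgn (0.0530), Dab2 (0.0695), Ttr (0.0532) and Gata6 (0.0549). With no intensity trend those of Srgn (0.0539), Dab2 (0.0639), Ttr (0.0624), Sparc (0.0617) and Gata6 (0.0638) ended.

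Trophoblast and primordial germ cell markers had calls in the lower direction only, by limma over their tested genes. Of 8 trophoblast markers 6 were tested, 0 were called higher and 1 lower, with 0 and 4 at an unadjusted p under 0.05 in limma and a median of −1.12. The list sum was 146 and 279 FPKM in WT against 96.1 and 133 in promoter KO, with Krt8 the most abundant. Elf5 (0 and 0.0473 FPKM in WT, 0 and 0.0259 in promoter KO) and Gata3 (0.173 and 1.47 in WT, 0.304 and 0.0982 in promoter KO) were under the filter. Whether trophoblast cells were present in these EBs was not tested. Hand1, named after its values were seen, was under 1 FPKM in both promoter KO samples and passed the filter only through WT. Tfap2c, which the list of primordial germ cell markers also holds, fell from 9.60 and 16.2 to 3.87 and 3.83 FPKM (log2 fold change −1.48, limma adjusted p = 0.0422), and Krt7 was not called (−0.68, 0.0640). Of 6 primordial germ cell markers 5 were tested, 0 were called higher and 2 lower (0 and 3 at an unadjusted p under 0.05), with a median of −0.60. Their sum was 36.9 and 55.5 FPKM in WT against 19.0 and 22.2 in promoter KO. Dnd1, a germ cell RNA-binding protein and the most abundant of that list, fell from 17.3 and 25.3 to 7.19 and 9.22 FPKM (−1.26, adjusted p = 0.0433), and Nanos3 was under the filter. Not all germ cell markers were lower, since Nanos3 was at 0.242 and 0.810 FPKM in WT against 1.21 and 0.917 in promoter KO. Prdm1, named after its values were seen, was at 1.04 and 1.56 against 1.55 and 1.67. The germline genes above and the markers of germ cells thus had medians of opposite sign. For Tfap2c and Dnd1 the adjusted p was 0.142 and 0.198 without WT 2, 0.177 and 0.180 without promoter KO 1, and 0.0694 and 0.0530 without promoter KO 2. With no intensity trend it was 0.0639 and 0.0644. Of 6 neural ectoderm markers 1, Nes, was tested. It was at 21.6 and 24.5 FPKM in WT against 6.94 and 14.7 in promoter KO and was not called (−1.10, limma adjusted p = 0.0831). Nes was called lower with the replicate number as a block (limma adjusted p = 0.0355) and when promoter KO 2 was left out. The list sum was 22.5 and 25.2 FPKM in WT against 9.41 and 17.3 in promoter KO. Nes makes up most of that sum, and the other 5 markers, all under the filter, had higher means in promoter KO. Sox1 was at 0.0523 and 0.0942 FPKM in WT against 0.357 and 0.269 in promoter KO, and Pax6 at 0.1002 and 0.164 against 0.565 and 0.544. Zic1 was at 0.319 and 0.144 against 0.814 and 0.626, and Hes5 at 0.422 and 0.301 against 0.702 and 0.952. Neurog1 was at 0 and 0.0312 against 0.0318 and 0.172. These 5 genes had no test.

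Proliferation markers, given because Dnmt1 and Uhrf1 transcripts are known to be highest in dividing cells, were close in the genotypes. All 16 were tested, 0 were called by limma, and 1 was higher and 1 lower by unadjusted p (under 0.05), with a median log2 fold change of 0.03. Mcm2, a replication helicase subunit, was at 193 and 172 FPKM in WT against 282 and 207 in promoter KO (0.40, limma adjusted p = 0.144), and Aurkb, a mitotic kinase, was at 70.7 and 63.6 FPKM in WT against 55.3 and 56.3 in promoter KO (−0.26, 0.122). The summed FPKM, with Pcna the most abundant gene, was 2086 in WT 1 and 1967 in WT 2, against 2196 in promoter KO 1 and 2021 in promoter KO 2.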

How the data were processed

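Total RNA of day 3 EBs, 2 samples of each genotype, was sequenced on Illumina libraries. The deposited values are FPKM, 1 file per sample, already scaled to transcript length and depth. The file headers name no unit, the methods say RPKM, and reads were not used. The submitters' notes name HISAT2 2.1.0, Cufflinks and Cuffnorm on mm10, while the study's methods name TopHat, Cufflinks and Cuffdiff, so which aligner made the values is not known. The strand setting is not given.

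The 11941 genes that 2 or more samples list at 1 FPKM or above were tested on log2(FPKM + 1) with limma 3.58.1 in R 4.3.3 (lmFit, eBayes with an intensity trend, genotype as the only term), with Benjamini-Hochberg adjustment over all of them. The pseudocount makes fold changes of low genes smaller than the ratio of their FPKM. Single ratios had the exact permutation test. Depth was estimated from 3908 genes with a single transcript at an assumed fragment length of 200 bases (24600000, 21900000, 21400000 and 20000000 fragments). The procedure was tested on simulated data. Copies were found with BLAST 2.17.0 (at least 95% identity over at least 200 bases), and tables and figures were made with Python 3.11.15, numpy 2.4.6, pandas 2.3.3 and matplotlib 3.10.9. Promoter windows come from RefSeq.

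Named genes are the 9 members, Gm11549, from each other list every called gene and, where fewer than 2, the 2 with the smallest adjusted p, and for Dnmt3l and Tet1 the 5 genes most alike. Genes named besides are the most abundant or untested genes of a list, annotated copies, and Aire and Dnmt3aos, which overlap a member. Others are said to have been named after their values were seen. The lists are targeting partners, methyl-CpG readers, base excision and deamination, methyl donor cycle, germline genes silenced by promoter methylation, proliferation, naive pluripotency, formative and primed epiblast, mesendoderm, extraembryonic endoderm, trophoblast, neural ectoderm and primordial germ cell markers. Members and lists were chosen with earlier results of these data known. No set test was run.

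Alternatives were a replicate block, each sample left out in turn, a pseudocount of 0.1, no filter, a mean of at least 5 FPKM, no intensity trend, median centring and quantile normalization.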

Additional observations from a re-analysis of the deposited data

How the results depend on the processing

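Under the alternatives, 81 values of the 9 enzymes kept their direction and side of the threshold. Of the others, 11 lost a call, 1 gained one and 4 turned direction. The 3 ratios kept their direction in all 18 of theirs, which was fixed in advance except with the pseudocount. WT and promoter KO samples do not overlap in any ratio, so leaving a sample out cannot turn it. The block leaves the mean difference of a ratio unchanged. With no filter (18215 genes tested) 0 genes were called lower and 0 higher by limma, with 1982 and 2077 at an unadjusted p under 0.05, and 0 members were called. The log2 fold change was then 0.81 for Dnmt3a (adjusted p = 0.144, range over its alternatives 0.0137 to 0.214) and 1.92 for Dnmt3l (0.146, range 0.0101 to 0.214). With no intensity trend 27 genes were called lower and 55 higher, and 0 members, with Dnmt3a at 0.81 (0.0677) and Dnmt3l at 1.92 (0.0647). A mean of at least 5 FPKM gave 108 lower and 95 higher (126 and 84 past fold 2), from 8562 genes, and Tet2 and Tet3 were not tested. Median centring gave 126 lower and 157 higher, and a log2 fold change of Tet2 of 0.0022. A pseudocount of 0.1 gave 358 lower and 307 higher past fold 2.

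Leaving out each sample in turn, with the lone sample assumed to vary like the other genotype, gave 0 to 248 genes called lower, 0 to 238 higher, and 0 to 1 members. Past fold 2 there were 132 to 324 lower and 118 to 254 higher. The log2 fold change of Dnmt3a ran from 0.67 to 0.95 and that of Dnmt3l from 1.42 to 2.43. For Tet2 it ran from −0.20 to 0.15 and for Tdg from −0.089 to 0.17. The cause of these shifts was not tested.

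With the replicate number as a block, 667 genes were called lower and 535 higher, and Tet1 was called (0.73, adjusted p = 0.0342). The deviations of same-numbered samples correlated at 0.0348 across genes, so no shift shared by most genes was seen. The labels leave unstated whether same-numbered samples belong together, and calls are given without the block. The gene lists were run only under the block, median centring and quantile normalization, where 94 of 117 values moved little and 23 moved. List medians under the block equal the main ones by design. The other alternatives, with samples left out, no filter or no intensity trend among them, are not in this count. The depth limits Tet2 most, with 131 to 231 estimated fragments.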
